A study of Gallus gallus with 6 samples.

Results

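DNTT, LIG4, POLQ, UNG and FANCG encode 5 enzymes or cofactors that build, cut into or rejoin DNA, several of them at immunoglobulin loci. All 5 genes were found among the 4932 genes that could be named on the array, through 7 probes whose RefSeq accession belongs to one of them: DNTT and FANCG have 2 probes each, and LIG4, POLQ and UNG have 1 each. The tested cultures were IRF4 knockout DT40 cells (3 cultures, labelled IRF4-deficient), and they were set against wild type DT40 cells (3 cultures). All were independent cultures of this chicken B cell line, which derives from a bursal lymphoma, and no treatment is labelled. Total RNA of each culture was labelled with Cy3 and hybridised to 1 Agilent chicken array. How many knockout clones were used is unstated in these sources, so the errors cover the spread between cultures and may not cover that between clones.

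B cells use DNA breaks and DNA damage to make antibodies. In V(D)J recombination the RAG nuclease cuts gene segments, terminal transferase (DNTT) adds untemplated bases to the ends, and non-homologous end joining seals them with DNA ligase IV (LIG4). Chicken B cells, DT40 among them, then diversify the assembled genes mainly by gene conversion: uracil-DNA glycosylase (UNG) removes uracil that has been made from cytosine in these genes, and the lesion is repaired from a pseudogene template by homologous recombination. Polymerase theta (POLQ) joins ends through short homologies when the main route does not, and FANCG is a subunit of the Fanconi anaemia core complex, which acts on crosslinked DNA and stalled forks.

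Levels are given as the processed signal of each spot, in the scanner's linear units, or as log2 of that signal relative to the 75th percentile of its array. Testing required a probe to be flagged well above background on every array of the knockout, of wild type or of both, and a test was called at a limma adjusted p under 0.05. The share of gene spots with this flag was 62.4% to 68.2% per array. A marker counted as detected in a group when at least 1 of its probes was well above background on all 3 arrays. All 9 measured B cell markers were so in both groups (the one listed as BLNK was matched through a synonym, SH2D6). The summed level of the B cell markers was 200.6 to 208.2 in the knockout and 137.0 to 149.1 in wild type (linear, in units of the 75th percentile). A linear sum is weighted to its brightest genes, here with CD72 (9.25-fold higher in the knockout) among them. It does not show how each marker moved. Of 7 measured T cell markers, 4 were so in both groups (CD3D, CD3E, CD5 and CD8A), and CD4, CD28 and GATA3 in neither. CD8A passed with 1 of 3 probes in the knockout and 3 of 3 in wild type. The summed level of the T cell markers was 74.6 to 88.2 in the knockout and 67.9 to 70.4 in wild type (same units). Of 5 measured myeloid markers, CTSK was detected in both groups, LYZ in wild type alone, and CD14, CSF3R and MARCO in neither, with sums of 0.300 to 0.400 in the knockout and 0.393 to 0.432 in wild type. Of 3 erythroid and thrombocyte markers, ITGB3 was detected in both groups, HBA1 in the knockout alone and HBBR in neither, with sums of 0.355 to 0.396 in the knockout and 0.264 to 0.307 in wild type. Of 3 measured fibroblast markers, 2 were detected in the knockout and 1 in wild type. COL1A2 was detected in both (5 of 5 probes in the knockout, 2 of 5 in wild type), and COL3A1 in the knockout alone, with 1 of 10 probes. The summed level of the fibroblast markers was 5.64 to 6.37 in the knockout and 0.317 to 0.348 in wild type. Whether cells of these other types were present in the cultures, and any part of them in the results below, was not tested. In bulk RNA, fewer cells that express a gene and less of its RNA per cell cannot be told apart.

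The targeted gene was measured first. The brighter IRF4 probe (A_87_P037691) had signals of 1309.75, 1056 and 1220.2 in the knockout, against 26537, 24149 and 22133 in wild type. That is 18.6-fold lower (log2 fold change -4.21 ± 0.10, SE; limma adjusted p = 4.0e-07), and an exact two-sided permutation test over the arrays gave p = 0.1, the smallest that 3 against 3 arrays allow. For the other probe (A_87_P234013) no knockout array passed the background flag, and the fall was at least 11.2-fold. Every array thus matched the IRF4 status in its label.

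Of the 7 probes of the 5 genes, 6 were tested. Probes of DNTT, POLQ and FANCG were called higher in the knockout and those of LIG4 and UNG lower, and none of the 6 showed overlap between the groups. This count has to be read against an array on which most probes moved: 40.5% of all 28761 tested probes were called higher, 29.6% lower, and in 75.6% of those measured on all arrays the groups did not overlap. Calls and separation were therefore the usual outcome here, and the sizes of the changes are given beside them. The members were chosen with earlier results of these data known, so the ranks of these sizes describe the members and test nothing. A larger fall than that of LIG4 was fitted for 2.11% of tested probes, and a larger rise than that of DNTT for 3.30%. The corresponding shares were 8.07% for the brighter FANCG probe and 11.9% for POLQ among rises, and 8.43% for UNG among falls.

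**Figure D1:**
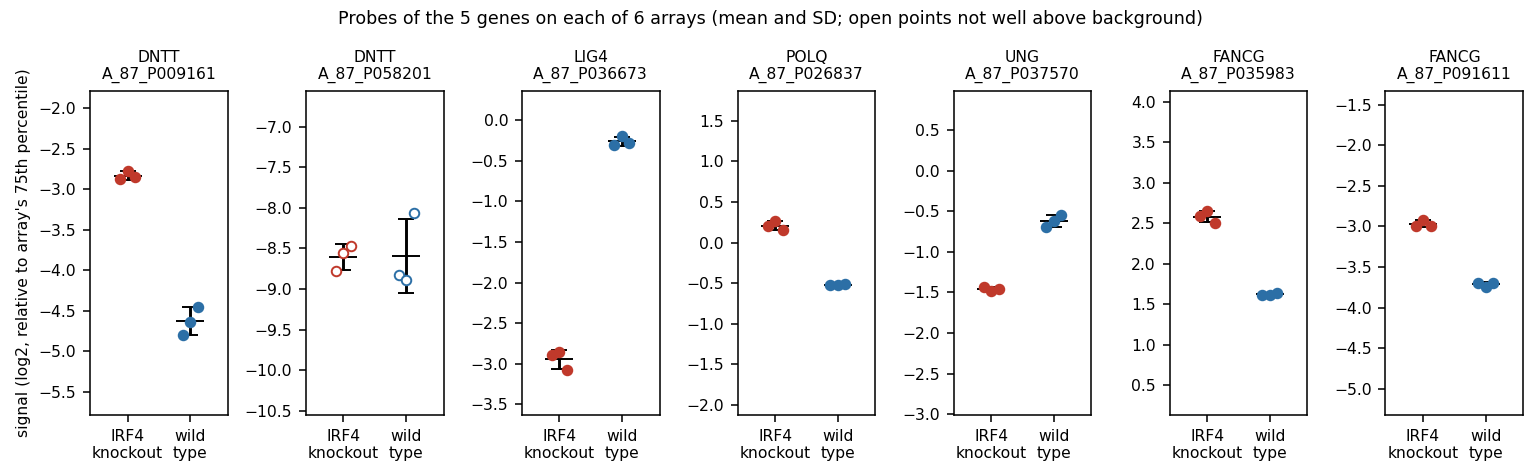
Log2 signal relative to the array's 75th percentile for the 7 probes of DNTT, LIG4, POLQ, UNG and FANCG; each point is 1 array (IRF4 knockout left, wild type right), the bar is the mean and the whiskers the SD, and every panel spans the same number of log2 units. The groups stand apart for 6 probes; the second DNTT probe (A_87_P058201, open points) is not well above background on any array.

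DNTT, which in mammals is the polymerase that adds N nucleotides to V, D and J ends, was higher in the knockout. Its measurable probe (A_87_P009161) had signals of 386, 397 and 367 on the 3 knockout arrays. On the 3 wild type arrays it had signals of 106, 125 and 134. The dimmest knockout array was well above the brightest wild type array, and the gap between the groups was 1.57 on the log2 scale. The log2 level averaged -2.84 ± 0.06 in the knockout and -4.63 ± 0.18 in wild type (SD, n = 3 each), a 3.47-fold rise (1.79 ± 0.09, SE; 95% interval 1.57 to 2.02; limma adjusted p = 1.0e-05). The spot was dim in absolute terms: its median brightness was 13.5 to 14.9 times that of its local background in the knockout and 5.79 to 5.90 times in wild type. Of the tested probes of the 5 genes it also had the widest spread between replicates, with a residual SD of 0.131 against a median of 0.069 over all tested probes. With normexp background correction the rise was 1.36.

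The second DNTT probe (A_87_P058201) gave no information on the gene. Its signals were 6.47, 7.19 and 7.48 in the knockout, against 6.52, 6.54 and 10.96 in wild type, and it was not well above background on any of the 6 arrays. The groups overlapped, and no fold change is given for it. Averaging it with the first probe lowered the log2 fold change of the gene to 0.89, still called (limma adjusted p = 0.0030). RAG1, the nuclease subunit that acts before DNTT in V(D)J recombination, was also at background. Neither of its 2 probes was well above background on any array, with signals of 6.44 to 7.84 in the knockout and 6.67 to 11.5 in wild type for the brighter. Thus DNTT signal was seen in both groups while that of RAG1 was not detectable, and RAG2 had no matched probe.

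LIG4, the ligase that seals ends in non-homologous end joining together with its partner XRCC4, showed the greatest change among the 5 genes. Its only probe (A_87_P036673) had signals of 382, 374 and 314 in the knockout. In wild type it had signals of 2404, 2702 and 2412. All knockout arrays lay far below all wild type arrays, with a gap of 2.56 log2 units. The log2 level averaged -2.94 ± 0.12 in the knockout and -0.26 ± 0.06 in wild type (SD, n = 3 each), a 6.43-fold fall (-2.68 ± 0.07, SE; 95% interval -2.85 to -2.52; limma adjusted p = 5.8e-07). LIG4 was still measurable in the knockout: the spot was 16.1 to 16.9 times as bright as its local background there, against 106.6 to 119.6 times in wild type, and all 6 arrays passed the background flag. With 1 probe matched to LIG4, no other part of the transcript could be followed, and further probes of it may be unnamed.

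POLQ, the polymerase and helicase of theta-mediated end joining, was moderately higher. Its probe (A_87_P026837) had signals of 3276, 3270.4 and 2946 in the knockout, against 2055, 2164 and 2050.3 in wild type. The wild type arrays differed very little from each other, and no knockout array came near them. The log2 level averaged 0.21 ± 0.06 in the knockout and -0.52 ± 0.01 in wild type (SD, n = 3 each), a 1.66-fold rise (0.73 ± 0.04, SE; 95% interval 0.63 to 0.83; limma adjusted p = 1.6e-05).

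UNG, which removes uracil from DNA and so acts early in immunoglobulin diversification, was lower. Its probe (A_87_P037570) had signals of 1049.9, 971 and 966 in the knockout, against 1833, 2020.2 and 2002 in wild type. The highest knockout array stayed 0.74 log2 units below the lowest wild type array. The log2 level averaged -1.46 ± 0.02 in the knockout and -0.62 ± 0.07 in wild type (SD, n = 3 each), a 1.79-fold fall (-0.84 ± 0.05, SE; 95% interval -0.95 to -0.72; limma adjusted p = 1.6e-05).

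FANCG, a subunit of the core complex that ubiquitinates FANCD2 and FANCI, is the only one of the 5 genes with 2 informative probes. The brighter (A_87_P035983) had signals of 17157, 16975 and 15067 in the knockout, against 9065, 9527 and 9119 in wild type. The dimmer (A_87_P091611) had signals of 358, 359.5 and 332 in the knockout, against 228, 232 and 227 in wild type. Both probes thus separated the groups in the same direction. The brighter rose 1.94-fold (0.96 ± 0.05, SE; 95% interval 0.85 to 1.07; limma adjusted p = 7.5e-06) and the dimmer 1.67-fold (0.74 ± 0.04, SE; 95% interval 0.65 to 0.84; limma adjusted p = 1.2e-05). Their log2 fold changes differed by 0.21, and the difference between the probes taken within each array separated the groups, with an exact two-sided permutation p of 0.1, the smallest possible. The rise is therefore given as a range over the probes.

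The arrays sat on 4 slides. Slides 1 and 2 each held 1 knockout and 1 wild type array, while the other 2 slides held 1 array each, so that slide and group cannot be told apart there. Within slide 1 and slide 2 the log2 fold change was 1.92 and 1.86 for DNTT, -2.59 and -2.66 for LIG4, and 0.73 and 0.79 for POLQ. It was -0.74 and -0.87 for UNG, 0.98 and 1.02 for the brighter FANCG probe, and 0.71 and 0.83 for the dimmer. Each direction was the same on both slides. The calls were also kept in every other setting run on each probe (the dimmer FANCG probe has no fit of its own with 1 feature a gene), at values between 1.71 and 1.88 for DNTT and between -2.73 and -2.62 for LIG4 when any 1 array was left out.

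**Figure D2:**
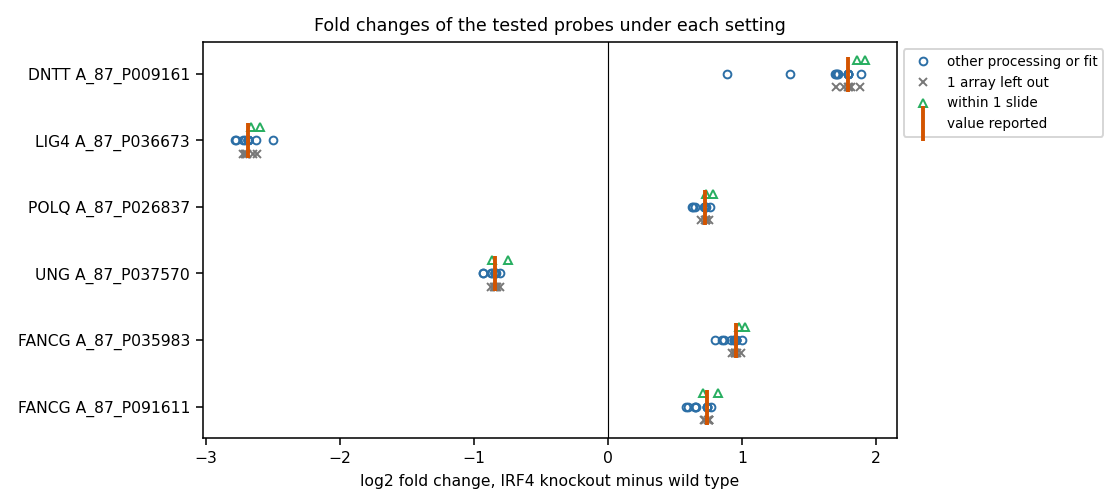
Log2 fold change (IRF4 knockout minus wild type) of the 6 tested probes under each setting: orange bars mark the value reported, circles other processing or fits, crosses fits without 1 array, and triangles the difference within 1 slide. No point crosses 0; the widest range belongs to DNTT, whose lowest value, 0.89, is the average with its silent probe.

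Genes of the surrounding pathways, in 7 lists, give the context. Of 109 listed genes 50 had a matched probe and 48 were tested, RAG1 and POLK being below the filter. Counting the 5 members, 21 were called higher in the knockout and 15 lower. Without the members 18 of 43 were higher and 13 lower, with a median log2 fold change of 0.07. Among all 3836 named genes tested, 38.5% were called higher and 31.8% lower, with a median of 0.05. Centring arrays on their median instead of the 75th percentile gave 14 higher and 21 lower for the 48, so the balance of small changes depends on the scaling. Of the 36 calls, 22 kept their side in all 16 settings of the fit per probe, and 14 were lost or turned in at least 1. Of 31 genes with 2 or more tested probes, 29 had probes of the same sign, and 0 had probes called in opposite directions.

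**Figure D3:**
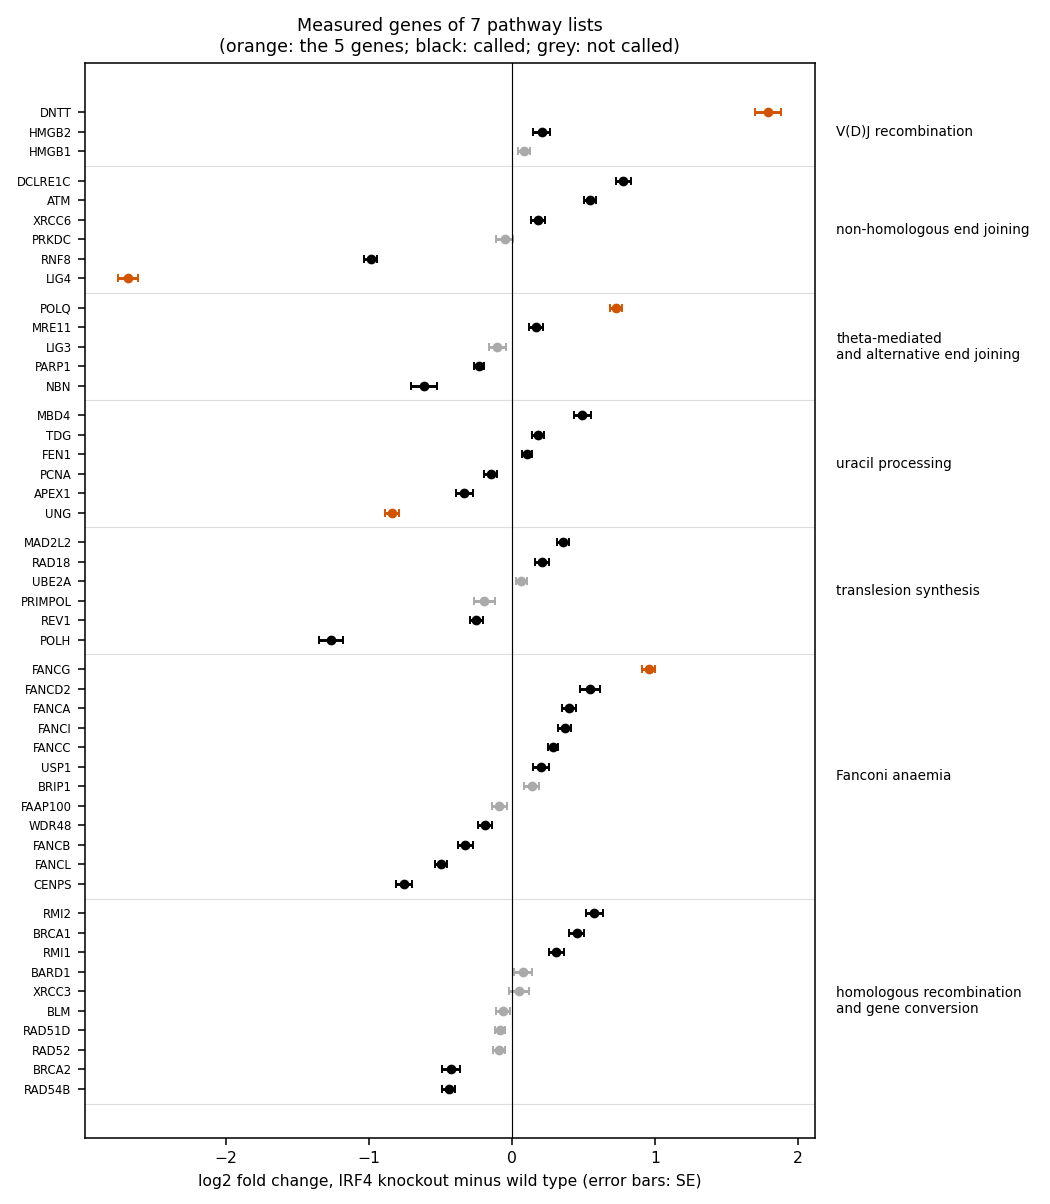
Log2 fold change (IRF4 knockout minus wild type, error bars SE) of the 48 tested genes of 7 pathway lists, 1 probe a gene. LIG4 at -2.68 and DNTT at 1.79 lie farthest from 0 on their sides; POLH at -1.26 is the farthest among the other genes.

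In non-homologous end joining, the pathway of LIG4, 3 of 6 tested genes were higher and 2 lower (median 0.07). DCLRE1C, which encodes the nuclease Artemis that opens hairpin ends, rose 1.72-fold (0.78 ± 0.05, SE) and its second probe gave 0.63. The brighter DCLRE1C probe was dim, averaging -4.19 in the knockout and -4.97 in wild type, and gave between 0.52 and 0.82 over the 16 settings. ATM, the kinase that signals breaks, rose 1.46-fold, with all 4 of its probes between 0.45 and 0.55. XRCC6, which encodes the end-binding subunit Ku70, was called at 0.18 ± 0.05, and its second probe at 0.31 ± 0.04 (limma adjusted p = 0.00080). The call of the brighter XRCC6 probe was lost with median centring (limma adjusted p = 0.17), normexp (0.057), slide as a fixed block (0.061) and chromosome medians subtracted (0.13). RNF8, a ubiquitin ligase recruited to breaks, fell 1.98-fold (-0.99 ± 0.04, SE), or by 0.60 on the log2 scale with the median of its chromosome subtracted. PRKDC, the catalytic subunit of DNA-dependent protein kinase, stood at -0.05 ± 0.06 (limma adjusted p = 0.47), and at a called 0.37 (adjusted p = 0.0019) with the median of its chromosome subtracted. XRCC4, XRCC5, NHEJ1 and POLL had no matched probe, so the binding partner of LIG4 is not analysed here.

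Among genes of theta-mediated and alternative end joining, 2 of 5 were higher and 2 lower (median -0.10). POLQ was the only one of this list whose call was kept in every setting. NBN, of the MRE11 nuclease complex, fell 1.53-fold (-0.62 ± 0.09, SE) and missed the threshold with its chromosome's median subtracted (-0.19, limma adjusted p = 0.063). PARP1, a sensor of broken DNA, stood at -0.23 ± 0.04 (SE) with its brightest probe and was called lower. The other PARP1 probes were also called lower, at -0.26 and -0.48. With that subtraction the brightest probe turned to a called rise of 0.16, and with slide as a fixed block its limma adjusted p was 0.055. It stood at -0.37 with the authors' values and -0.38 with quantile scaling. The settings were not followed for the other PARP1 probes. MRE11 was called at 0.17 ± 0.05 (limma adjusted p = 0.021), and its call was lost in 8 settings, among them without knockout replicate 2 (0.055) or 3 (0.060) and without wild type replicate 1 (0.062) or 2 (0.053). LIG3, the other ligase measured, stood at -0.10 ± 0.06 (limma adjusted p = 0.19), and its 3 probes all lay at -0.10. It was called lower with the authors' values (-0.16, limma adjusted p = 0.040), quantile scaling (-0.16, 0.036), median centring (-0.19, 0.042) and chromosome medians subtracted (-0.23, 0.010). LIG1 had no matched probe.

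In the list of uracil processing, 3 of 6 genes were higher and 3 lower (median -0.02). Of these 6 calls, 2 were kept in every setting, those of UNG and MBD4. FEN1, counted as higher at 0.11, kept its call in 3 of 16 settings, and PCNA, counted as lower at -0.15, in 8. UNG had the greatest change and was in the opposite direction to the other glycosylases measured. MBD4, which removes thymine and uracil opposite guanine, rose 1.41-fold with one probe (0.49 ± 0.06, SE; 0.29 with its chromosome's median subtracted, still called) and by 0.51 with the other. TDG, with a like substrate range, was called at 0.18 ± 0.04 and lost the call with median centring (limma adjusted p = 0.071), chromosome medians subtracted (0.099) and slide as a fixed block (0.14). The second TDG probe was called at 0.20 (limma adjusted p = 0.0070). APEX1, the endonuclease that cuts the site UNG leaves behind, fell 1.26-fold (-0.33 ± 0.06, SE), and stood at -0.02 with its chromosome's median subtracted (limma adjusted p = 0.70). SMUG1 had no matched probe.

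Polymerases that copy past damaged bases act on the same abasic sites. Of 6 tested genes of translesion synthesis, 2 were higher and 2 lower (median -0.06). POLH, polymerase eta, fell 2.40-fold (-1.26 ± 0.08, SE, limma adjusted p = 2.9e-05), with its other probes at -1.19 and -0.95. With its chromosome's median subtracted POLH stood at -0.87, still called. MAD2L2, a subunit of polymerase zeta, rose 1.28-fold (0.36 ± 0.04, SE; 0.19 with its chromosome's median subtracted, still called). REV1 was called lower at -0.25 ± 0.05 (SE), a call lost with slide as a fixed block (limma adjusted p = 0.0504). RAD18, the ligase that modifies PCNA, was called at 0.21 ± 0.05 and lost the call with median centring (0.069), slide as a fixed block (0.060) and chromosome medians subtracted (0.88). The second RAD18 probe was called at 0.17 (limma adjusted p = 0.025).

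Of 12 tested Fanconi anaemia genes, FANCG included, 6 were higher and 4 lower (median 0.17), against 38.5% and 31.8% of all named genes (median 0.05). Of these 10 calls, 8 were kept in every setting. FANCA, which binds FANCG within the core complex, rose 1.32-fold (0.40 ± 0.05, SE) and FANCC rose 1.22-fold (0.29 ± 0.04, SE; 0.13 and still called with its chromosome's median subtracted). The complex's substrates rose as well, FANCD2 by 0.55 ± 0.07 (0.35 with that subtraction) and FANCI by 0.37 ± 0.04 (SE). Other subunits moved the opposite way. FANCB fell by 0.33 (SE 0.05) with one probe and by 0.65 with the other, and FANCL, the ubiquitin ligase of the complex, fell by 0.49 (SE 0.04). The fall of FANCL was only -0.10 with its chromosome's median subtracted, though still called. CENPS, which helps FANCM to bind DNA, fell 1.68-fold (-0.75 ± 0.06, SE). BRIP1 (0.14 ± 0.05, limma adjusted p = 0.056) and FAAP100 (-0.09 ± 0.05, limma adjusted p = 0.18) were not called; BRIP1 passed the threshold with normexp (0.020), with only probes above background on all 6 arrays (0.048) and without knockout replicate 3 (0.027), and FAAP100 with median centring (-0.18, 0.027) and chromosome medians subtracted (-0.22, 0.0023). FANCE, FANCF and FANCM had no matched probe.

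Homologous recombination carries out gene conversion in DT40 cells. Of 10 tested genes of this list, 3 were higher, 2 lower and 5 not called by their brightest probe (median -0.0060). Among these 5, dimmer probes of RAD51D (-0.17, limma adjusted p = 0.016) and RAD52 (-0.19, 0.0097) were called lower. A dimmer probe of XRCC3 was called higher (0.22, limma adjusted p = 0.0033). With median centring, and with chromosome medians subtracted, the brightest probes of RAD51D, RAD52 and BLM were called lower. RMI2, a partner of the BLM helicase, rose 1.49-fold (0.58 ± 0.06, SE), and BRCA1 rose 1.37-fold (0.45 ± 0.05, SE). BRCA2, a tumour suppressor of recombination, fell 1.34-fold (-0.43 ± 0.06, SE), with its second probe at -0.42. RAD54B fell by 0.44 (SE 0.04), and stood at -0.02 with its chromosome's median subtracted (limma adjusted p = 0.66). The second RAD54B probe was called at -0.52 without that subtraction (limma adjusted p = 8.5e-05). In the list of V(D)J recombination, besides DNTT, HMGB2, a cofactor of the RAG proteins, was called at 0.21 ± 0.06 (limma adjusted p = 0.017). That call, of the brightest HMGB2 probe, was lost in 6 settings, among them without knockout replicate 1 (0.054) or 2 (0.0515) and without wild type replicate 1 (0.053). The other HMGB2 probes were called higher at 0.27 and 0.30 (limma adjusted p = 0.0043 and 0.0016).

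The order of genes along the chromosomes of the GRCg7b assembly was used to set each gene beside its neighbours. The median log2 fold change of all named genes was 0.05. It was 0.10 over 543 genes for the chromosome shared by LIG4 and POLQ, 0.09 over 120 genes for that of DNTT, 0.09 over 106 for that of UNG and 0.17 over 164 for that of FANCG, of which 87 were called higher and 27 lower. With these medians subtracted all 6 probes kept their calls. The medians of other chromosomes are not given. Their subtraction moved some pathway genes farther: PRKDC from -0.05 to 0.37, POLH from -1.26 to -0.87 and MBD4 from 0.49 to 0.29. For LIG4, the next gene on one side, ABHD13, fell 1.33-fold (-0.41 ± 0.06, SE; limma adjusted p = 0.00091). The gene after that is TNFSF13B, whose product BAFF keeps B cells alive. It averaged -1.99 ± 0.06 in the knockout and 3.49 ± 0.02 in wild type (SD, n = 3 each), a 44.9-fold fall. LIG4 thus lies in a run of 3 measured genes in a row that were all lower in the knockout. Beyond this run, ANKRD10 was 3.11-fold higher with 14 genes in between. On the other side of LIG4, ARGLU1, with 3 genes in between, stood at 0.06 ± 0.05 (limma adjusted p = 0.36). ERCC5, with 10 genes in between, rose 1.61-fold. Whether the 3 falls are linked was not tested. Of all 3836 named genes tested, 31.8% were called lower and 38.5% higher, and how often such runs occur among them was not counted.

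Around DNTT and FANCG, too, 3 measured genes in a row were higher in the knockout, though genes that were not named and tested lie between them. DNTT adjoins SH2D6, a gene that the reference lists with the synonym BLNK and that rose 1.52-fold (0.60 ± 0.04, SE), while on its other side CUTC, with 11 genes in between, rose 1.26-fold. POLQ adjoins METTL16, which fell 1.62-fold (-0.70 ± 0.04, SE), opposite to POLQ. Beyond METTL16, TNFRSF1A (-0.55 ± 0.08, SE) and FAM46C (-0.45 ± 0.04, SE) were also called lower. On the other side RABL3, with 2 genes in between, rose 1.26-fold (0.34 ± 0.05, SE). Beyond RABL3, FSTL1 was called lower (-1.63 ± 0.17, SE) and POPDC2 higher (1.00 ± 0.08, SE). Both were dim in 1 group, FSTL1 averaging -5.14 in the knockout and POPDC2 -4.51 in wild type. FSTL1 gave between -1.85 and -1.09 over the 16 settings, and POPDC2 between 0.77 and 1.08. FANCG adjoins VCP, which stood at 0.11 ± 0.10 (limma adjusted p = 0.38), and CD72, an inhibitory co-receptor of B cells, is the next measured gene on the other side and rose 9.25-fold with 11 genes in between, followed by CD72L1 (0.47 ± 0.04, SE; 0.31 with the chromosome's median subtracted, still called). Around UNG, the nearest measured genes were KCTD10 at -0.14 ± 0.05, with a call lost in 8 settings (limma adjusted p = 0.084 and 0.11 without knockout replicate 2 or 3, 0.078 and 0.12 without wild type replicate 1 or 3), and PTPN11 at -0.08 ± 0.06 (limma adjusted p = 0.22). The fall of UNG was thus much greater than that of any of its 6 measured neighbours, which lay between -0.14 and 0.27. With 3 genes between UNG and KCTD10 and 14 between UNG and PTPN11, the genes that adjoin UNG were not among those named and tested.

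**Figure D4:**
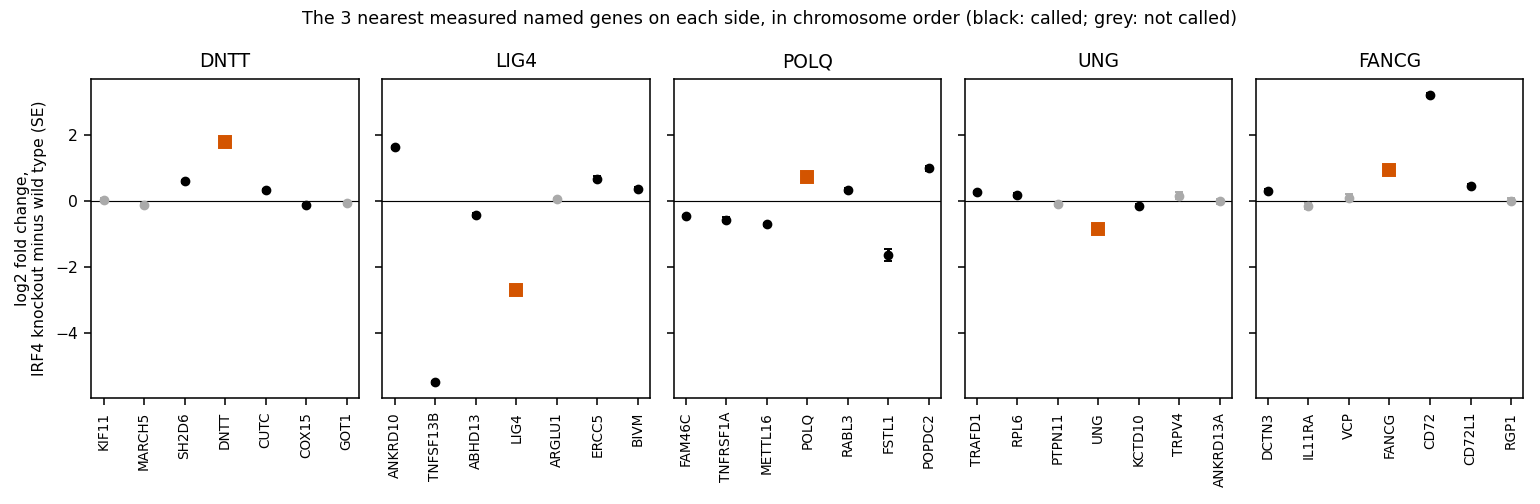
Log2 fold change (IRF4 knockout minus wild type, error bars SE) of each of the 5 genes (orange squares) and of the 3 nearest measured named genes on each side, in chromosome order and not to distance. LIG4 at -2.68 stands beside ABHD13 at -0.41 and TNFSF13B at -5.49, DNTT at 1.79 beside SH2D6 at 0.60 and CUTC at 0.33, and UNG at -0.84 beside genes between -0.14 and 0.27. Genes that were not named and tested lie between UNG and every neighbour shown. They also lie between DNTT and CUTC, LIG4 and ARGLU1, POLQ and RABL3, and FANCG and CD72, and between some of the neighbours.

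Other genes followed the same pattern over the 6 arrays as the members did. Likeness was measured as the root mean square difference between profiles centred on their own mean, over 3821 other named genes; it describes mostly the shared difference between the groups. For DNTT the nearest were SOCS3 (0.096 log2 units, r = 0.994), RBMS1 (0.121) and NR3C1 (0.123), the gene of the glucocorticoid receptor. For LIG4 they were TRIM39.2 (0.052, r = 0.999), the adenylyl cyclase gene ADCY9 (0.092) and SOCS5 (0.106). For POLQ they were PNRC2 (0.018), SPATA2 (0.023) and the mitochondrial deacetylase gene SIRT3 (0.024). For UNG they were the kinase gene RIPK1 (0.027), ACYP2 (0.029) and TMEM170B (0.036), and for FANCG they were MMD (0.017), STK17A (0.032) and TMEM43 (0.034). None of these 15 genes belongs to the pathway lists. As the lists hold only 48 of the 3836 named genes tested, that absence is the usual outcome.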

How the data were processed

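Total RNA of 3 IRF4 knockout and 3 wild type DT40 cultures was measured on 6 single-colour Agilent arrays, grouped by the sample titles. Per the file headers, the deposited intensity values were read with Feature Extraction 10.7.1.1 (annotation galGal3), background-subtracted and not scaled between arrays. Other columns, deposited as flags of 0 and 1, gave outliers and spots above background. A further table by the authors holds linear intensity brought to 1 distribution (median 225.7 on every array) by an unstated method. Per the submitters' processing notes, R 2.12.0 and limma were used.

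Here control spots (1417) and outlier-flagged spots were left out, signals scaled to each array's 75th percentile and taken as log2. The groups were compared with limma 3.58.1 under R 4.3.3 (knockout minus wild type, two-sided, group only, Benjamini-Hochberg over all 28761 tested probes), after a test on simulated data. A gene in a list is its brightest tested probe. Unversioned accessions were looked up in RefSeq's gene table of GRCg7b: 10691 of 43603 probes (24.5%) were named, so other probes of a gene may be unnamed; no coordinates or sequences are printed. Precision is limited by the number of arrays and by signal over background, whose 75th percentile was 98.0 to 110.7 times the median background; no spot was saturated.

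The members, lists, tests and alternatives were chosen with earlier results of these data known. From each list up to 4 called genes with the largest changes were named, beside a fixed set that held RAG1, the end-joining and Fanconi genes. Neighbours along the chromosome were added after the values were seen. So were RAD51D, RAD52, XRCC3, BLM, FEN1 and PCNA, named because their calls depend on the probe or setting. Some genes of the pathway lists are not reported here and enter no count over them. The replicate numbers of the titles did not pair the samples (correlations of same-numbered deviations between -0.012 and -0.008).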

Additional observations from a re-analysis of the deposited data

How the results depend on the processing

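The 6 tested probes kept their direction and their call with normexp, median centring, quantile scaling, the authors' values, other filters, slide as a fixed or random block, gene-level fits (not run for FANCG A_87_P091611, which is not its gene's brighter probe), chromosome medians subtracted, and each array left out. The largest limma adjusted p was 0.0038 (FANCG A_87_P091611) and the greatest shift that of DNTT to 0.89 with the mean of its probes. Some of these settings could change a call but not a direction. Other filters and the brightest probe a gene use the same values, and the gene-level mean of LIG4, POLQ and UNG is their only probe. With slide as a fixed block the fold change is the mean of the differences within slides 1 and 2, so these are not separate checks. Differences within a slide, which have no test, moved by more than the replicate SD for UNG (-0.74 on slide 1), POLQ (0.79 on slide 2) and FANCG (1.02 and 0.83 on slide 2). The replicate block, whose numbers the data do not show to pair cultures, changed no call of these probes (limma adjusted p 5.7e-05 for LIG4, 0.00025 for DNTT, 0.00052 for UNG, 0.00054 for POLQ, 0.00036 and 0.00059 for FANCG), with 11117 probes higher and 8156 lower. It could not move a fold change, since each replicate number holds 1 knockout and 1 wild type array.

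Over all probes 11650 were called higher and 8518 lower (57.8% of calls higher), but 9251 and 10269 with median centring (47.4% higher). The pathway genes ranged from 14 to 22 higher and from 11 to 21 lower. Subtraction of chromosome medians covers named probes only and gives no count over all probes. Signal over background limits DNTT, whose second probe is at background, and RAG1, which has both there; LIG4, POLQ and UNG rest on 1 probe each.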
